A study of Mus musculus with 4 samples.

Results

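Resident cDC1 (rcDC1) are the conventional type 1 dendritic cells that live in the lymph node and do not arrive there from a tissue. Their members here are the cells that the authors' deposited annotation names rcDC1, found again in the expression matrices by their UMI count, gene count and mitochondrial share. They number 273 of the 1731 annotated antigen-presenting cells (APCs), 135 of 782 in the control library and 138 of 949 in the RGX-104 library. A UMI (unique molecular identifier) marks 1 captured RNA molecule, and levels are given as CPM, the gene's UMIs summed over the rcDC1 of a library and scaled to a total of 1000000.

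Conventional type 1 dendritic cells take up dead cells, move their proteins into the class I pathway and present them to CD8 T cells, a process called cross-presentation. They depend on the transcription factors Irf8 and Batf3, carry the chemokine receptor Xcr1 and the dead-cell receptor Clec9a, and in lymphoid organs express Cd8a. The liver X receptors (LXR) are nuclear receptors for oxysterols that, with RXR partners, switch on genes of cholesterol export and fatty acid synthesis, while the SREBP2 factor, held in check by sterols, drives cholesterol synthesis and uptake.

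Wildtype mice carried an injected tumor. The treated mice ate chow with RGX-104, an LXR agonist, from day 3 after the injection, the control mice ate control chow, and the tumor-draining lymph nodes of both were taken on day 8. APCs and T cells were flow-sorted after collagenase and DNAse digestion, and each chow gave 1 library of 10x 5' gene expression with a matching library of T cell receptor (TCR) transcripts. The labels used here give no tumor line, no age or sex of the mice and no number of mice per library. Since each chow is 1 library, chow and library cannot be told apart, no test between chows is possible, and every interval covers counting error only.

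The rcDC1 were the deepest cells among the APC types. The median control rcDC1 held 16248 UMIs and 3482 genes, and the median RGX-104 rcDC1 19292 UMIs and 3702 genes. Their summed counts were 2198303 and 2565280 UMIs. The libraries shared 95 barcodes, but no barcode was an rcDC1 in both. Contigs of a TCR were assembled in 4 control and 5 RGX-104 rcDC1, and the T cell markers in the remaining rcDC1 summed to 18.4 and 26.3 CPM against 5898 and 5479.5 CPM in the T cells of the same libraries. Without these 9 cells 2 of the named genes moved past their counting interval, Cxcl10 and Ccl5, and both are given both ways.

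Promoter sequence is shown first for genes of groups that stood higher on RGX-104 chow and for which a binding element is known. Printed are some genes with a match, and not all of them were among the genes that moved most. The element that LXR and its RXR partner bind in the genes Abca1, Srebf1 and Fasn was searched as GGTNACT, 3 free bases and GGNCA on both strands of the RefSeq promoter windows of GRCm38.p6, which run from 250 bases before to 50 after a gene's start. It occurred in 32 of 32851 windows (0.0974%). The pattern was taken from these 3 genes, so a match in them was given by its choice and is no measure of enrichment in the list. Of the 15 measured genes of the LXR target list 10 had a window, and 3 of these held a match, printed here 5′ to 3′ on the gene's strand with the match in capitals:
Abca1: cagcgttTGACCGGTAGTAACCccggcgc
Srebf1: acgacagTGACCGCCAGTAACCccagcgc
Fasn: gccacgaTGACCGGTAGTAACCccgcctg
These stretches lie at chr4:53159941-53159969 (Abca1), chr11:60210632-60210660 (Srebf1) and chr11:120824751-120824779 (Fasn), all 3 genes on the minus strand, with the match beginning 67, 182 and 225 bases before the window's start site. RefSeq places Abca1 at 53030789 to 53159988 on chromosome 4 and Srebf1 at 60199084 to 60224186 on chromosome 11, so both stretches lie inside the gene's full span, upstream of the start used for its window.

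The second group is the interferon gamma response. The interferon-stimulated response element, known from promoters of interferon-induced genes, was searched as GAAA, 2 free bases and GAAA on both strands. It occurred in 1131 of 32851 windows (3.44%), and in 4 of the 10 windows found for the 18 measured genes of that list, namely Cxcl10, Gbp5, Irgm1 and Socs1. For Cxcl10, an interferon-induced chemokine, and Gbp5, an interferon-induced guanylate-binding protein, the matches read:
Cxcl10: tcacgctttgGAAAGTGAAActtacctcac
Gbp5: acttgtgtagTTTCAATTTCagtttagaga
They lie at chr5:92349083-92349112 on the minus strand and chr3:142496759-142496788 on the plus strand. A sterol regulatory element searched as TCACCCC was present in 4.97% of all windows and in 3 of the 14 windows found for the cholesterol list (Hmgcs1, Insig2 and Srebf2). These matches describe letters in a window and are no measure of binding.

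The label was first compared with the 5 fixed markers. Xcr1 was at 297 CPM on control and 354 CPM on RGX-104 chow, and at no more than 4.39 CPM in any other APC type. Clec9a stood at 335 and 352 CPM, with 120 and 95.6 CPM in pDC and 118 and 86.8 CPM in pre-DC2. Wdfy4, needed for cross-presentation, stood at 719 and 842 CPM, and Naaa, a lipid amidase, at 768 and 774 CPM, both above every other type in both libraries. Irf8 was the exception to this order, with 1188 and 1087 CPM in rcDC1 and 2354 and 2675 CPM in pDC. At least 3 of the 5 markers were seen in 129 of 135 control rcDC1 (95.6%) and 134 of 138 RGX-104 rcDC1 (97.1%), leaving 6 and 4 cells with fewer. The same held for 3 of 166 and 4 of 214 mcDC1 and 3 of 87 and 11 of 167 rcDC2. It held for more of the pDC (14 of 53 and 3 of 9), the pre-DC2 (7 of 24 and 7 of 21), the mono cells (7 of 75 and 17 of 78) and the macrophages (1 of 27 and 13 of 52). All 5 markers were seen in 77.0% and 83.3% of rcDC1.

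**Figure D1:**
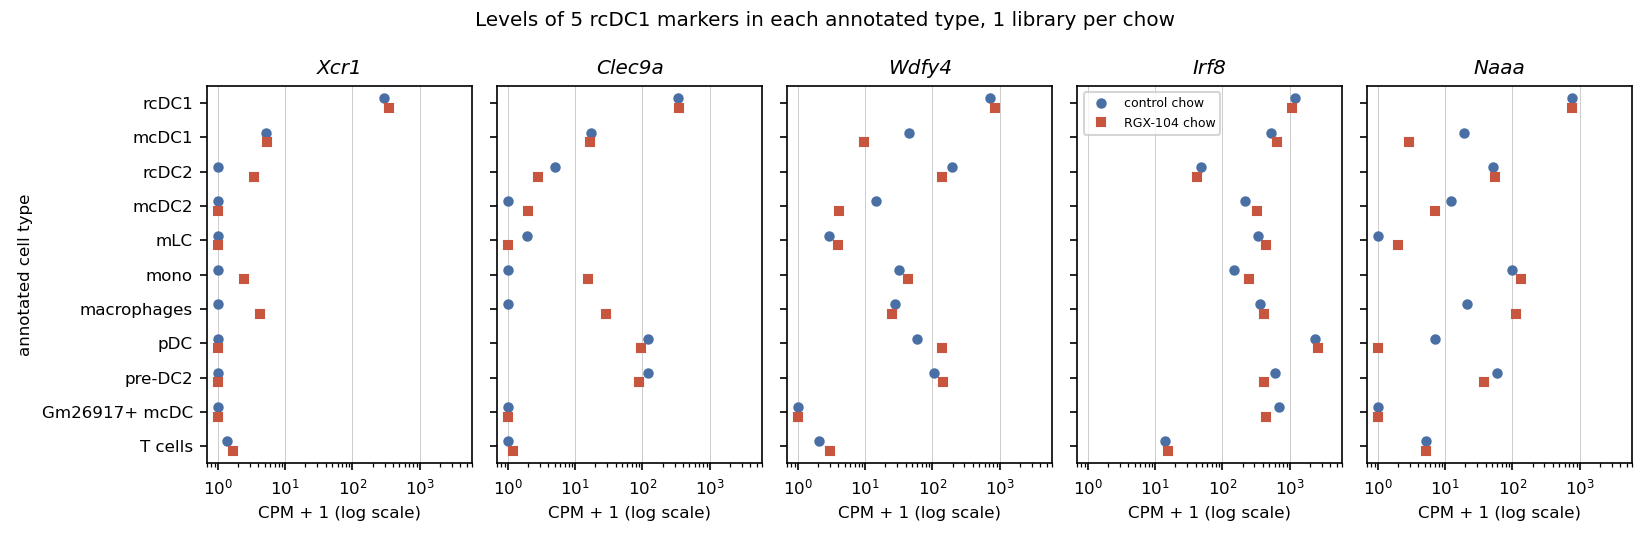
CPM + 1 of the 5 rcDC1 markers on a log axis for each annotated type, with circles for the control library and squares for the RGX-104 library, 1 library per chow. Xcr1, Wdfy4 and Naaa are highest in rcDC1, Clec9a is next highest in pDC and pre-DC2, and Irf8 is higher in pDC (2354 and 2675 CPM) than in rcDC1 (1188 and 1087 CPM).

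Markers of other cells were low and close between the libraries for most lists. The 12 T cell markers summed to 55.0 and 62.8 CPM, the 10 neutrophil markers to 0 and 0.390 CPM and the 10 erythroid markers to 0.455 and 1.17 CPM. The 12 macrophage markers summed to 174 and 129 CPM, most of it from Cd68, with Mertk and Vsig4 at 0 in both libraries. The 12 monocyte markers summed to 798 and 834 CPM, mostly Plac8 and Lyz2, with Chil3 and Vcan at 0.

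Beyond the fixed markers, 12 genes exceeded the next highest APC type by most in both libraries. As the types are clusters of the same genes, this is a description of the label. Snx22, a sorting nexin, stood at 65.1 and 55.7 CPM against at most 2.09 CPM elsewhere. Tlr3, the endosomal sensor of double-stranded RNA, stood at 87.3 and 86.5 CPM against at most 4.4 CPM, in the cells named mono. Cd36, a scavenger receptor for lipids and dying cells, stood at 105 and 107 CPM against at most 8.05 CPM. The others were Xcr1, Gcsam, Fam149a, Hepacam2, Dbn1, Ppt1, Rab7b, Ifi205 and Clnk. Ppt1, a lysosomal thioesterase, had the highest level of these in its own right, at 1113 and 1118 CPM.

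Other genes tied to the lineage had varied orders. Batf3 stood at 213 and 179 CPM in rcDC1 and at 399 and 384 CPM in mcDC1, the other type named cDC1. The gene for the integrin chain Itgae, a marker of tissue cDC1, was at 42.3 and 47.6 CPM in rcDC1 and at 0.696 and 1.46 CPM in mcDC1. Cd8a was at 367 and 485 CPM in rcDC1, 50.8 and 48.8 CPM in mcDC1 and 273 and 253 CPM in T cells, which also held Itgae at 58.3 and 38.4 CPM.

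Against mcDC1, at least 2-fold higher in rcDC1 in both libraries were 876 of 6393 genes compared (13.7%), and at least 2-fold lower were 1055 (16.5%). The 8 highest were Ccl4, Cxcl9, Sult1a1, Xcr1, Naaa, Plbd1, Tlr3 and Rab7b. Ccl4, an inflammatory chemokine, stood at 334 and 258 CPM in rcDC1 and 1.39 and 1.46 CPM in mcDC1. Cxcl9, the CXCR3 ligand that draws activated T cells, stood at 541 and 835 CPM in rcDC1 and 6.96 and 6.83 CPM in mcDC1. The 8 lowest were Fscn1, Nudt17, Ankrd33b, Ccl5, Cd63, Socs2, Anxa3 and Il4i1. Fscn1, the actin bundler of mature dendritic cells, was at 5.46 and 2.34 CPM in rcDC1 against 5725 and 4488 CPM in mcDC1. Ccl5 was at 36.8 and 92 CPM against 13619 and 15254 CPM, and the lymph node homing receptor Ccr7 at 69.6 and 96.3 CPM against 3563 and 3187 CPM.

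Against rcDC2, 309 of 5631 genes (5.49%) were at least 2-fold higher in rcDC1 in both libraries and 356 (6.32%) at least 2-fold lower. The 8 highest were Xcr1, Rab7b, Gpr141b, Clec9a, Gcsam, Cd8a, Irf8 and Ppt1, and the 8 lowest Ccl9, Nrgn, Cd209a, Dscam, Sirpb1a, Tmem176a, Clec4a3 and H2-M2. Irf8 was 25.6-fold and 26.2-fold above rcDC2, where it stood at 46.4 and 41.4 CPM. Cd209a, a C-type lectin of cDC2, was at 5.46 and 2.73 CPM in rcDC1 and 379 and 333 CPM in rcDC2.

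rcDC1 made up 17.3% of control APCs (Clopper-Pearson interval 14.7 to 20.1%) and 14.5% of RGX-104 APCs (12.4 to 16.9%). The ratio of the shares was 0.842, with a counting interval of 0.660 to 1.08 that holds 1. Of the 4 conventional dendritic cell types alone (rcDC1, rcDC2, mcDC1 and mcDC2) the rcDC1 were 30.3% of 445 and 22.2% of 623 cells, a ratio of 0.730 (0.572 to 0.933). Beside the 135 and 138 rcDC1 there were 87 and 167 rcDC2, and a share depends on the numbers of all types in it.

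Between chows, 6903 genes had at least 50 UMIs in rcDC1 over both libraries and are called measured. On RGX-104 chow 290 of them were up by 1.5-fold or more (4.2%) and 238 down by as much (3.45%). At 2-fold these were 67 (0.971%) and 31 (0.449%). Over all of them the log2 ratio had a median of -0.03. Among the 10 highest by the interval bound nearest 1 were Abca1, Scd2, Iigp1, Fdps, Scd1, Idi1, Srebf1 and Sqle. Of these, all but Iigp1, an interferon-induced GTPase, act in lipid or sterol metabolism. The 10 lowest were Jun, Ccl2, Clec1b, Rac2, Sulf2, Ccr2, Actn1, Clpx, S100a10 and Gclc. The minimum is on the sum of both libraries, so a gene with few control UMIs is measured only where its RGX-104 count is high, and the counts of list members below are descriptions. In rcDC1 as a whole these counts stand beside the shares over all measured genes, 4.2% higher and 3.45% lower.

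**Figure D2:**
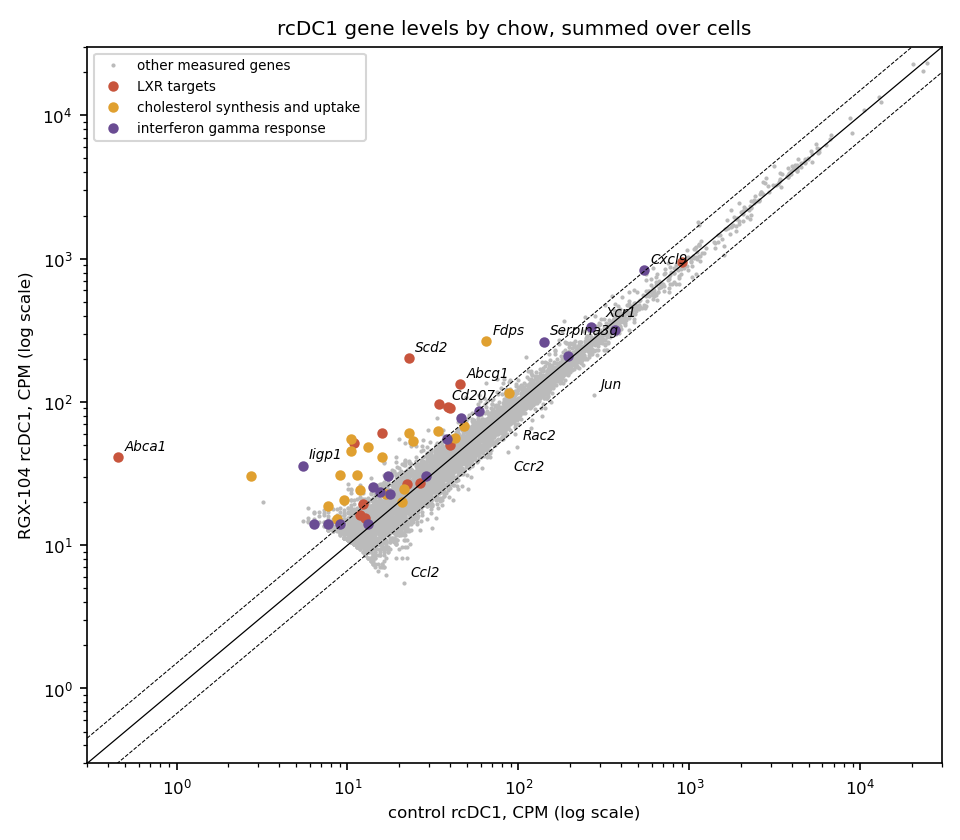
CPM of the 6903 measured genes in control (x axis) and RGX-104 (y axis) rcDC1, both on log axes, with 3 gene lists in colour. The solid line is equality and the dashed lines 1.5-fold either way. Abca1 (0.455 and 40.9 CPM) lies farthest above, Scd2 (22.7 and 203 CPM) is also above, and Jun (278 and 112 CPM) and Ccl2 (21.4 and 5.46 CPM) are below.

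Among LXR targets, Abca1, the pump that loads cellular cholesterol onto apolipoproteins, had 1 UMI in 1 control cell and 105 UMIs in 60 RGX-104 cells. These are 0.455 and 40.9 CPM, a ratio of 90.0 with a counting interval of 15.8 to 3587. The shares of rcDC1 with an Abca1 UMI were 0.741% and 43.5%, and with each cell thinned to 3000 UMIs (10 and 7 shallower cells left out) 0.0875% and 11.9%. rcDC1 had the lowest Abca1 level of the 11 annotated groups on RGX-104 chow, the next being mcDC1 at 73.6 CPM.

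Scd2, a desaturase that makes monounsaturated fatty acids, had 50 UMIs in 35 of 135 control cells and 520 UMIs in 123 of 138 RGX-104 cells, 22.7 and 203 CPM, an 8.91-fold ratio (6.66 to 12.2). The share of cells with a Scd2 UMI was thus also higher, 89.1% against 25.9%, and 46.4% against 6.67% at 3000 UMIs per cell. Its relative Scd1 stood at 10.9 and 51.8 CPM (4.75-fold, 3.06 to 7.67), log2 2.25, or 3.01 without cells that have a TCR contig or at least 2 T or B cell genes. Srebf1, the factor that drives fatty acid synthesis, stood at 15.9 and 60.8 CPM (3.82-fold, 2.63 to 5.68).

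Abcg1, a second cholesterol exporter, was already present in control rcDC1, at 45.5 CPM, and stood at 133 CPM on RGX-104 (2.93-fold, 2.34 to 3.70). Mylip, a ubiquitin ligase, stood at 34.1 and 97.5 CPM (2.86-fold, 2.20 to 3.75), while in rcDC2 it was at 46.4 and 42.1 CPM (0.907-fold, 0.595 to 1.4). Of the 27 LXR targets listed 15 were measured, and 9 of these passed 1.5-fold upward and 0 downward, against 4.2% and 3.45% of all measured genes. The list's median on the log2 scale was 1.18, ranging from 0.05 (Smpdl3a) to 6.49 (Abca1).

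The receptors themselves differed little. Nr1h2, which encodes LXR beta, stood at 61.0 and 58.1 CPM (0.953-fold, 0.749 to 1.21). Nr1h3, which encodes LXR alpha, had 3 and 2 UMIs. The other 11 LXR targets under the minimum were also sparse. Mertk, Abcg4, Apoc2, Mlxipl and Arg1 had 0 UMIs in both libraries. Tgm2, a transglutaminase, had 0 and 11 UMIs, Pltp 0 and 5, Apoc1 0 and 3, Lpl 0 and 1, and Cd5l 1 and 0. Acsl3, an acyl-CoA synthetase, had 3 and 33 UMIs (9.43-fold, 2.96 to 48.0).

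Cholesterol synthesis and uptake genes were higher alongside the export genes. Of the 28 listed 21 were measured, 15 passed 1.5-fold upward and 0 downward, and the list's median was 1.14. The shares over all measured genes were 4.2% and 3.45%. Fdps, which makes farnesyl pyrophosphate, stood at 64.6 and 266 CPM (4.12-fold, 3.44 to 4.97), in 62 and 117 cells.

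Idi1, an isomerase before Fdps, stood at 10.5 and 45.2 CPM (log2 2.11, and 3.04 without cycling cells) and Sqle, squalene epoxidase, at 13.2 and 48.7 CPM. The sterol-regulated retention protein Insig1 stood at 15.9 and 41.3 CPM (2.60-fold, 1.76 to 3.92). Srebf2, which encodes the factor that drives these genes, stood at 87.8 and 116 CPM, below 1.5-fold.

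The same list had a median of 1.91 in rcDC2 (11 of 14 measured genes higher), 1.92 in mono (6 of 7) and 0.69 in mcDC1 (13 of 22), with 0 lower in each. Among all genes measured in rcDC2, mono and mcDC1, 6.77%, 7.8% and 4.46% were higher and 3.98%, 10% and 5.6% lower. The LXR target list stood at 1.73 in rcDC2, 0.20 in mono and 1.36 in mcDC1. In mcDC1 Fdps was at 157 and 287 CPM (1.83-fold, 1.57 to 2.15) and Idi1 at 235 and 313 CPM (1.33-fold, 1.16 to 1.52), so that control rcDC1 were lower than control mcDC1 in both genes. How the ratios differ between these types was not tested.

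**Figure D3:**
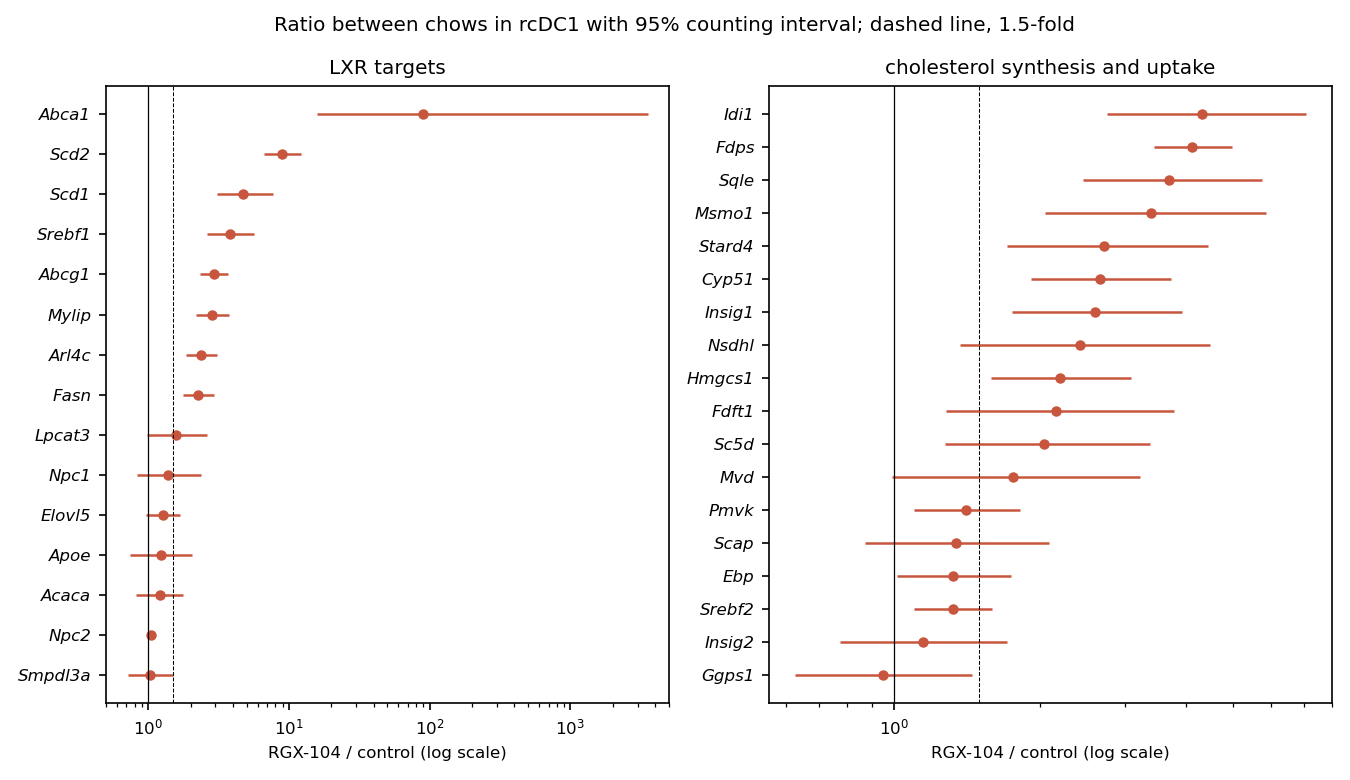
RGX-104 to control ratio of measured LXR targets (left) and 18 of the measured cholesterol genes (right) in rcDC1 on a log axis, with the 95% counting interval as a bar. The solid line marks 1 and the dashed line 1.5-fold; 9 of 15 and 12 of 18 plotted points lie past the dashed line, and Abca1 has the widest interval because the control library holds 1 UMI.

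Fatty acid synthesis and desaturation, a list that shares Scd1, Scd2, Srebf1, Fasn, Lpcat3, Acaca, Elovl5 and Acsl3 with the LXR targets, had 20 measured genes, of which 8 passed 1.5-fold upward and 0 downward, and a median of 0.36. Fasn, fatty acid synthase, stood at 40.0 and 90.8 CPM (2.27-fold, 1.77 to 2.93). Of sterol transport and nuclear receptor genes, 2 of 20 were higher (Abca1 and Abcg1) and 1 lower (Rxrb, an RXR partner, 37.8 and 23 CPM). Beside both lists, 4.2% of all measured genes were higher and 3.45% lower. Rxrb was at a log2 of -0.12 in place of -0.72 when the mean over cells of each cell's CPM was used.

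Interferon gamma response genes had a median of 0.61 on the log2 scale in rcDC1, and 10 of 18 measured genes passed 1.5-fold upward and 0 downward. The shares over all measured genes were 4.2% and 3.45%. Cxcl9 had 1189 UMIs in 88 control cells and 2142 UMIs in 100 RGX-104 cells, 541 and 835 CPM, a 1.54-fold ratio (1.44 to 1.66). The mean over cells of each cell's CPM put it at a log2 of 0.32 in place of 0.63. In T cells, which should lack it, 0.333% and 0.952% had a Cxcl9 UMI at a median depth of 4944 and 5048 UMIs, against 65.2% and 72.5% of rcDC1. At 3000 UMIs per cell the rcDC1 shares were 41.9% and 54.6%.

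Serpina3g, a protease inhibitor induced by interferon gamma, stood at 141 and 264 CPM (1.87-fold, 1.63 to 2.15) in 83 and 95 cells. Iigp1 stood at 5.46 and 35.9 CPM (6.57-fold, 3.59 to 13.2), but 66.7% of its 12 control UMIs came from 1 cell, and without the top cell of each library its log2 ratio was 4.01 in place of 2.72. Cxcl10 stood at 45.9 and 77.2 CPM, with 50.5% of its RGX-104 UMIs in 1 cell, and without the cell with most UMIs in each library its log2 ratio was 0.16 in place of 0.75. It was 1.18 without the cells that have a TCR contig and 1.27 by the mean over cells of each cell's CPM. Cd274, which encodes PD-L1, had 7 and 41 UMIs in 6 and 22 cells (5.02-fold, 2.23 to 13.3), under the minimum, and at 3.18 and 16 CPM it was far below mcDC1 at 322 and 313 CPM.

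Irf1, a transcription factor induced by the signal, stood at 59.1 and 86.2 CPM, under 1.5-fold. The receptor chain Ifngr1 stood at 368 and 318 CPM. Beside rcDC1, the same list had a median of -0.11 in mcDC1 (0 of 17 higher and 3 lower), 0.19 in rcDC2 and 1.70 in mono (17 of 21 higher and 0 lower). Over all measured genes 4.46% were higher and 5.6% lower in mcDC1, 6.77% and 3.98% in rcDC2, and 7.8% and 10% in mono. The difference in ratio between types was not tested. Type I interferon genes in rcDC1 had a median of 0.24 with 4 of 15 higher and 0 lower, against 4.2% and 3.45% of all measured genes. Among the 4 was Zbp1, a nucleic acid sensor, at 21.8 and 39.4 CPM. Of the genes under the minimum, Ifit1 had 10 and 0 UMIs and Oasl1 5 and 17.

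**Figure D4:**
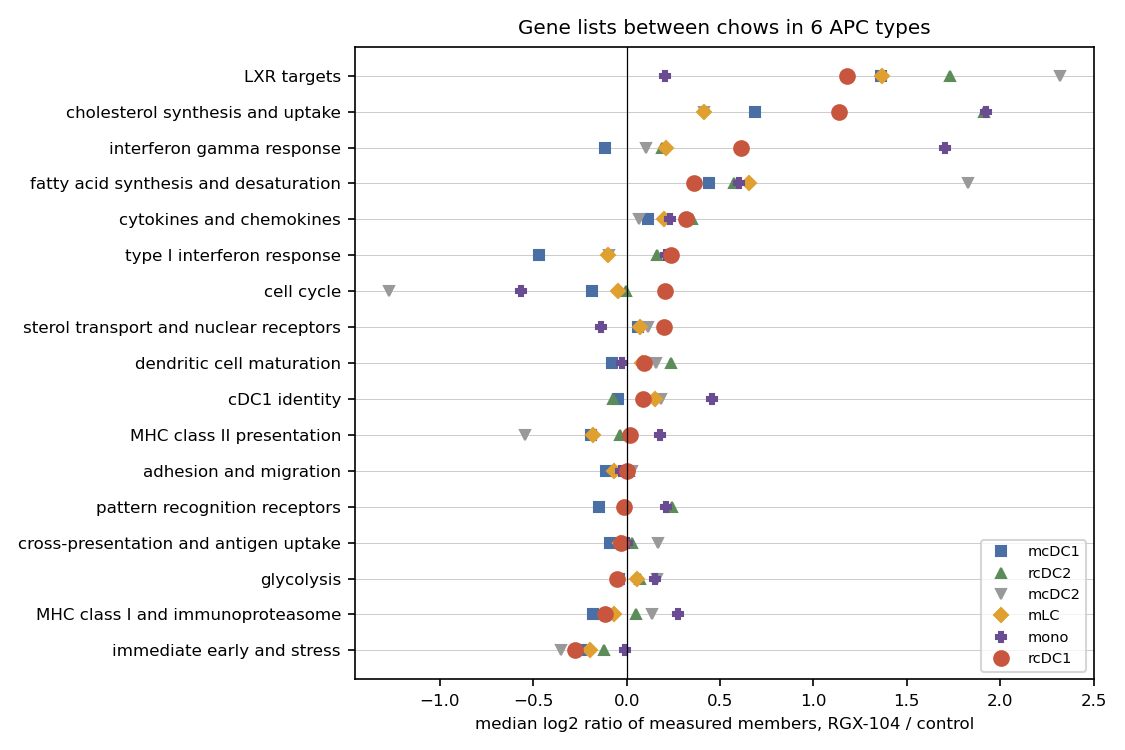
Median log2 ratio of RGX-104 to control over the measured members of 17 gene lists (rows) in rcDC1 (large circles) and 5 other APC types. In rcDC1 the LXR target, cholesterol and interferon gamma lists stand at 1.18, 1.14 and 0.61, the cDC1 identity, class I and class II lists between -0.12 and 0.09, and the immediate early list at -0.27.

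The genes that define the type stood at similar levels on both chows. All 30 genes of the cDC1 identity list were measured, and 0 passed 1.5-fold in either direction, with a median of 0.09 and a range from -0.35 to 0.56. Over all measured genes 4.2% were higher and 3.45% lower, so few were to be met among 30. As the types are clusters of these same genes, similar levels are in part given by the label. Irf8 stood at 1188 and 1087 CPM (0.915-fold, 0.867 to 0.966), Batf3 at 213 and 179 CPM (0.839-fold, 0.736 to 0.956) and Cadm1, an adhesion molecule of cDC1, at 184 and 181 CPM (0.986-fold, 0.861 to 1.13). At the upper end Dnase1l3, a secreted DNase, stood at 321 and 474 CPM (1.47-fold, 1.34 to 1.62) and Cd8a at 367 and 485 CPM (1.32-fold, 1.21 to 1.45). At the lower end Zbtb46, the transcription factor of conventional dendritic cells, stood at 72.3 and 56.9 CPM.

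Presentation genes were likewise close. Of 22 class I and immunoproteasome genes and 18 measured class II genes, 0 passed 1.5-fold in either direction, with medians of -0.12 and 0.02. With 4.2% of all measured genes higher and 3.45% lower, few were to be met in lists of this size. H2-K1 stood at 1507 and 1473 CPM, B2m at 1831 and 1957 CPM, and H2-Ab1 at 8703 and 9589 CPM (1.10-fold, 1.08 to 1.12). Ifi30, a lysosomal thiol reductase, stood at 1034 and 748 CPM (0.724-fold, 0.681 to 0.769) and Pdia3, a chaperone of class I loading, at 758 and 584 CPM (0.771-fold, 0.719 to 0.827). Nlrc5, the activator of class I genes, had the highest ratio of its list, 1.44-fold (1.09 to 1.91), at 38.2 and 55.0 CPM.

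Of 36 measured cross-presentation and uptake genes, 2 were higher (Cd207 and Rab27a) and 1 lower. These counts are close to the shares over all measured genes, 4.2% higher and 3.45% lower. Cd207 (langerin), a lectin of Langerhans cells that cDC1 of some tissues also express, had 82 UMIs in 29 control cells and 241 UMIs in 51 RGX-104 cells. These are 37.3 and 93.9 CPM (2.52-fold, 1.95 to 3.28), and 37.0% of RGX-104 rcDC1 had a UMI against 21.5% of control rcDC1 and 0.1% of RGX-104 T cells. At 3000 UMIs per cell the shares were 16.1% and 7.92%. Of the 10 Langerhans markers, Cdh1 and Trem2 were at 0 in both libraries, and Epcam had 4 and 9 UMIs. The whole list, Cd207 included, summed to 86.9 CPM on control and 152 CPM on RGX-104 chow. Only 2 of its genes were measured, both above 0, with log2 ratios of 0.49 and 1.33 (Cd207). The lower gene among the 36 was Rac2, a GTPase of phagocytosis and migration, at 97.8 and 48.7 CPM (2.01-fold lower, 1.60 to 2.52).

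Cytokine and chemokine genes were uneven, with 5 of 13 measured genes higher and 1 lower and a median of 0.32. The shares over all measured genes were 4.2% and 3.45%. Il1b stood at 353 and 551 CPM, Tnf at 18.2 and 32.0 CPM, and Ccl4 at 334 and 258 CPM. Tnf was seen in 19 control and 10 RGX-104 cells, with 25.6% of its RGX-104 UMIs in 1 cell. Il12b, a subunit of interleukin 12, stood at 96.4 and 88.5 CPM (0.918-fold, 0.758 to 1.11), with 59.4% and 50.2% of its UMIs in 3 cells of each library, and its log2 ratio was 0.28 in place of -0.12 without the top cell of each and 1.07 without cells that have a TCR contig or at least 2 T or B cell genes. Ccl5 stood at 36.8 and 92 CPM (2.50-fold, 1.93 to 3.25, log2 1.32), but 30.5% of its RGX-104 UMIs came from 1 cell, and without the rcDC1 that have a TCR contig its log2 ratio was 0.69. Ccl2, a monocyte attractant, was lower, with 47 UMIs in 10 control cells and 14 UMIs in 2 RGX-104 cells (3.92-fold lower, 2.12 to 7.70), log2 -1.97, and -3.15 without the top cell of each library.

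Maturation genes showed no common direction, with 1 of 15 measured genes higher (Ccl5), 1 lower (Cd1d1, 21.8 and 11.7 CPM) and a median of 0.10. Counts this small are near the 4.2% and 3.45% of all measured genes that were higher and lower. The costimulatory genes Cd80, Cd86 and Cd40 stood at 31.4 and 33.5, 143 and 179, and 57.8 and 62.8 CPM. Ccr7 stood at 69.6 and 96.3 CPM (1.38-fold, 1.13 to 1.70), and it was seen in 30 and 35 cells. Its log2 ratio was 0.47, and 1.29 without cells that have a TCR contig or at least 2 T or B cell genes.

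The lower genes included chemokine receptors and immediate early genes. Jun, a subunit of AP-1 (chromosome 4, 95049036 to 95052222), had 611 UMIs in 89 control cells and 287 UMIs in 70 RGX-104 cells, 278 and 112 CPM, 2.48-fold lower (2.16 to 2.87). Of 26 measured immediate early and stress genes, 4 were at least 1.5-fold lower (Jun, Egr2, Egr1 and Ier3) and 1 higher (Egr3), with a median of -0.27. Among all measured genes 3.45% were lower and 4.2% higher. Fos stood at 1588 and 1064 CPM and Dusp1 at 867 and 669 CPM. Jun was also lower in mcDC1 (117 and 71.7 CPM) and T cells (125 and 68.9 CPM), and immediate early genes are known to be induced also by tissue digestion, which both libraries underwent. The part of digestion in these values was not tested.

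Ccr2, the receptor for Ccl2, stood at 86.4 and 44.8 CPM (1.93-fold lower, 1.52 to 2.45), in 54 and 32 cells. Under the same screen of T and B cell genes its log2 ratio was -1.93 in place of -0.95, that of S100a10, a calcium-binding adaptor, -1.73 in place of -0.85, and that of Actn1, an actin crosslinker, -0.14 in place of -1.05. Gpr183, an oxysterol receptor that positions dendritic cells, stood at 25.5 and 14.0 CPM (1.82-fold lower, 1.17 to 2.84). They are the 2 lower genes of 19 measured adhesion and migration genes. In rcDC2 Ccr2 stood at 59.6 and 62.8 CPM. Gclc, a subunit of glutathione synthesis, was 1.72-fold lower, but 64.0% of its control UMIs came from 1 cell, and without the top cell of each library its log2 ratio was 0.28 in place of -0.78. Pattern recognition receptors (1 of 15 lower) and glycolysis genes (0 of 16 either way) had medians of -0.01 and -0.05. Among all measured genes 3.45% were lower.

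The rcDC1 were not uniform within a library. A cell cycle score above 0, from the authors' S and G2M scores, was found in 45 of 135 control cells (33.3%, Clopper-Pearson interval 25.5 to 42.0%) and 37 of 138 RGX-104 cells (26.8%, 19.6 to 35.0%), a ratio of 0.804 (0.506 to 1.27). No other of the 6 APC types that had 50 or more cells in both libraries reached these shares, and mcDC1 had 12% and 12.6%. The scores are a range and not a type: 7 and 8 cells had an S score within 0.02 of 0. Mki67, a proliferation marker, stood at 237 CPM in the cycling and 8.41 CPM in the remaining control cells, and at 424 and 5.78 CPM on RGX-104 chow. As the scores are made from cell cycle genes, this difference describes the split and is no separate support for it.

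Some interferon gamma, cytokine and maturation genes stood lower in cycling cells. Against the other rcDC1, cycling cells were below by 1.5-fold or more in both libraries for 205 of 4535 genes (4.52%) and above for 607 (13.4%). Of 9 interferon gamma genes with enough counts 4 were lower in both libraries, of 12 maturation genes 5, of 9 cytokine genes 4, and of 30 cDC1 identity genes 7. Cxcl9 stood at 359 CPM in cycling and 640 CPM in other control cells, and at 267 and 1109 CPM on RGX-104 chow. Il12b stood at 18.1 and 139 CPM, and at 5.99 and 128 CPM. Its UMIs came from few cells, with 59.4% and 50.2% of them in 3 rcDC1 of each library. The median over cells of the summed maturation list was 1082 CPM in cycling and 1379 CPM in other control cells, and 953 and 1507 CPM on RGX-104 chow.

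The cDC1 identity list was not uniform, with 11 of 30 genes at least 1.5-fold lower in control and 10 in RGX-104 cycling cells (medians of -0.36 and -0.47). Of all 4535 genes compared, 380 and 442 were lower by as much (medians of 0.14 and 0.18). Irf8 stood at 1226 CPM in cycling and 1167 CPM in other control cells and Naaa at 754 and 776 CPM, while Clec9a stood at 202 and 407 CPM and Dnase1l3 at 124 and 428 CPM. On RGX-104 chow Dnase1l3 stood at 177 and 617 CPM. Among the genes most reduced in cycling cells, a list chosen after its values were seen, were Nr4a3, an orphan nuclear receptor (73.8 and 246 CPM on control, 115 and 488 CPM on RGX-104 chow), and Rgs1, a regulator of chemokine receptor signals (15.5 and 101 CPM, and 24.0 and 143 CPM). Median depth was 16127 UMIs in cycling and 16290 in other control cells, and 24782 and 17873 UMIs on RGX-104 chow.

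Lipid genes stood higher on RGX-104 chow in both fractions, to different extents by list. Scd2 stood at 23.3 and 216 CPM in cycling cells and at 22.4 and 196 CPM in the others. Abca1 on RGX-104 chow was at 14.4 CPM in cycling and 53.7 CPM in other cells. The LXR target list had a median between chows, on the log2 scale, of 1.30 over 8 genes in cycling cells and 1.38 over 14 genes in the others. The cholesterol list had a median of 0.66 over 7 genes in cycling cells, with 4 higher, and 1.45 over 18 genes in the others, with 12 higher. The interferon gamma list had a median of 0.04 over 7 genes in cycling cells, with 0 genes higher and 1 lower, and 0.74 over 14 genes in the others, with 8 higher and 0 lower. Cxcl9 between chows was 0.745-fold (0.621 to 0.892) in cycling cells and 1.73-fold (1.60 to 1.88) in the others. In control and RGX-104 rcDC1, 3 cells held 25.8% and 24.0% of its UMIs, and these intervals do not cover such spread between cells. Among all measured genes, 5.44% were up and 4.52% down by 1.5-fold or more on RGX-104 chow in cycling cells, and 4.24% and 4.44% in the others. The gene sets measured in the fractions differ, and the difference between fractions was not tested.

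**Figure D5:**
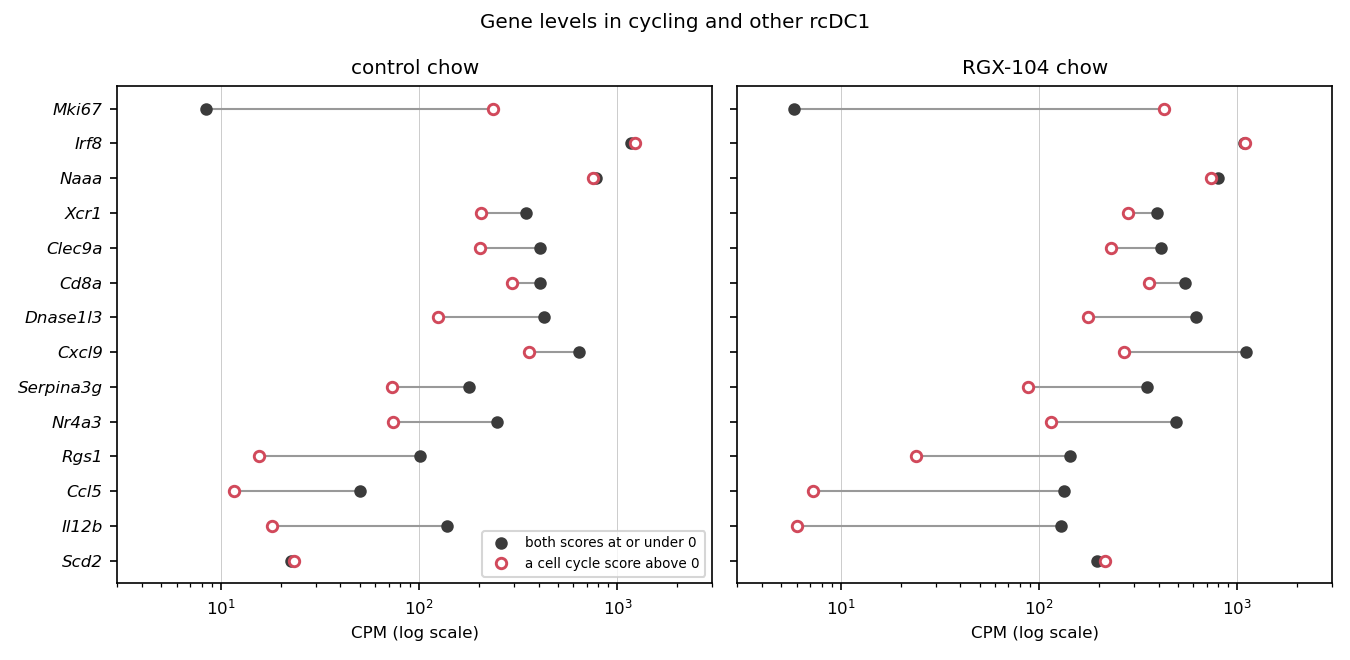
CPM on a log axis of 14 genes in rcDC1 with both cell cycle scores at or under 0 (filled) and with a score above 0 (open), for each chow. Mki67 is higher in cycling cells, which describes a split by scores made from cell cycle genes. Irf8, Naaa and Scd2 are close, and Il12b (139 and 18.1 CPM in control) and Ccl5 are lower in cycling cells in both libraries. In control and RGX-104 rcDC1, 3 cells held 59.4% and 50.2% of the Il12b UMIs and 40.7% and 49.6% of the Ccl5 UMIs.

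Genes of the cell cycle list were not lower as a group on RGX-104 chow, as 4 of 28 measured genes passed 1.5-fold upward (Rrm2, Mki67, Top2a and Cdk1) and 0 downward, and the median was 0.21. The shares over all measured genes were 4.2% and 3.45%. Within the cycling cells Mki67 was 1.79-fold higher (1.49 to 2.15). By the authors' phase these cells were 27 in S and 18 in G2M on control, and 18 and 19 on RGX-104 chow. The part of this phase mix in the Mki67 ratio was not tested. In control and RGX-104 rcDC1, 3 cells held 31.79% and 28.02% of the Mki67 UMIs, and the interval does not cover such spread between cells. Without the cells that have a TCR contig or at least 2 T or B cell genes, the list median was -0.42 and the log2 ratio of Mki67 was 0.18 in place of 0.68.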

How the data were processed

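The authors deposited UMI counts per gene and barcode for each RNA library. Their matrices name Cell Ranger 5.0.0 in the file headers, and mm10 and Seurat 5.0.3 come from the submitters' processing notes. The authors' deposited annotation gives each cell a type, a mitochondrial percent and unitless cell cycle and doublet scores; the deposited contig tables hold UMI counts. Annotated cells were matched to barcodes by UMI count, gene count (genes in at least 3 barcodes) and mitochondrial percent, and each matched once. No other cell filter or doublet caller was used.

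Counts were summed over the rcDC1 of each library (Python 3.11.15, scipy 1.17.1). Ratios carry exact conditional binomial and shares Clopper-Pearson 95% intervals, which cover counting error only. Measured means at least 50 UMIs over both libraries. With 1 library per chow no test was run. TMM factors came from edgeR 4.0.16 (R 4.3.3). The ratios were tested on simulated counts. Positions and promoter windows are from RefSeq, GRCm38.p6.

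Named are the 10 genes highest and 10 lowest by interval bound with at least 20 CPM in 1 library, up to 4 per list, 28 genes in all cases, 8 each way against mcDC1 and rcDC2, and 12 above all types; genes outside this rule were named after their values were seen. Some genes under the rule are not reported here. Receptor, immunoglobulin, mitochondrial, ribosomal protein and unnamed genes were left out of ranks. The members and the gene lists were chosen with earlier results of these data known. The B cell, NK cell, pDC, cDC2, Langerhans and stromal marker lists summed to 193 and 177, 90.1 and 83.4, 258 and 260, 295 and 256, 86.9 and 152, and 22.7 and 30.4 CPM in control and RGX-104 rcDC1.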

Additional observations from a re-analysis of the deposited data

Results flagged for a closer look

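For 4 of the 28 genes reported in all cases, the counting interval between chows lay above 1 in rcDC1 and below 1 in mcDC1 or rcDC2, or the reverse, with 1 library per chow. The differences between types were not tested. Wdfy4 was 1.17-fold (1.1 to 1.25) in rcDC1, 0.2-fold (0.112 to 0.343) in mcDC1, where it had 63 and 18 UMIs, and 0.698-fold (0.564 to 0.865) in rcDC2. Irf8 was 0.915-fold (0.867 to 0.966) in rcDC1 and 1.26-fold (1.15 to 1.38) in mcDC1. Ccr7 was 1.38-fold (1.13 to 1.7) in rcDC1 and 0.894-fold (0.862 to 0.928) in mcDC1. H2-Ab1 was 1.1-fold (1.08 to 1.12) in rcDC1 and 0.765-fold (0.718 to 0.815) in mcDC1.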

How the results depend on the processing

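Gene counts moved with the fold threshold, the minimum and the averaging. Higher and lower genes numbered 290 and 238 as reported, 652 and 568 with a minimum of 20 UMIs, 127 and 71 with 100 UMIs, 483 and 404 with the mean over cells of each cell's CPM, and 67 and 31 at 2-fold. Of 187 list medians under alternatives, 186 stayed within the counting interval of the list's middle members; the cell cycle median was -0.42 without cells that have a TCR contig or at least 2 T or B cell genes, a screen that removes 53 and 66 cells. Of the named gene values 857 stayed within their interval, 43 left it and 4 changed sign: Gclc (0.28 without the top cells and 0.997 under that screen), Cdk1 (-0.18) and Top2a (-0.33 under it). The LXR target median ran from 1.16 to 1.54, the cholesterol median from 0.81 to 1.45 and the interferon gamma median from 0.54 to 0.74 over 11 alternatives, of which the removal of cells with a TCR contig and of cells with fewer than 3 markers were chosen after seeing the data. Abca1 has no value without its top cells or among non-cycling cells, since its 1 control UMI is then gone. The causes were not tested. Scaling moved the median of all genes from -0.03 to at most 0.01. No paired analysis was possible because each chow has 1 library, and for the same reason no library could be left out.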

Other observations

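TCR contigs were assembled in 4 of 135 control rcDC1 (2.96%, Clopper-Pearson interval 0.813 to 7.41%) and 5 of 138 RGX-104 rcDC1 (3.62%, 1.19 to 8.25%). Among all other annotated APCs they were found in 2 of 647 control cells (0.309%, 0.0375 to 1.11%) and 0 of 811 RGX-104 cells (0 to 0.454%). The 9 rcDC1 held 6 and 9 contigs with a median of 5 and 4 UMIs, where the median over all contigs of each library was 5. Their T cell marker genes summed to 1031 and 1071 CPM, against 18.4 and 26.3 CPM in the other rcDC1 and 5898 and 5479.5 CPM in T cells. All 9 were kept by the authors' annotation, and their doublet scores reached 0.0762 on control and 0.130 on RGX-104 chow. Of them, 2 and 1 had a cell cycle score above 0.

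Ly6c2, a surface antigen of monocytes that is also inducible by interferon, had 44 UMIs in control and 141 UMIs in RGX-104 rcDC1, 20 and 55.0 CPM, while the monocyte genes Chil3 and Vcan were at 0 in both libraries and Lyz2 stood at 299 and 348 CPM. In T cells Ly6c2 stood at 434 and 510 CPM, and 25.4% and 31.6% of T cells had a UMI of it, against 20% and 28.3% of rcDC1. With each cell thinned to 3000 UMIs these shares were 23.8% and 29.6% in T cells and 5.14% and 10.1% in rcDC1. The part of T cell transcripts in the rcDC1 values was not tested. It was named after its value was seen.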
